A study of Mus musculus with 8 samples.

Results

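The comparison set 4 arrays of colonic CX3CR1hi cells against 2 arrays of splenic Ly6Chi monocytes, 6 of the 8 arrays of a mouse series in which each sorted population was hybridised to 1 Affymetrix array. The arrays were chosen by their labels. A gene was counted as separated where its lowest array on one side lay at least 1 log2, or 2-fold, above the highest on the other, and 1803 of 19938 genes met this. The mice were C57BL/6 heterozygous for a fluorescent reporter allele of Cx3cr1 (Cx3cr1gfp/+), which both sides carried. The colonic arrays were resident macrophages and monocyte-reconstituted resident macrophages, both at steady state and labelled female, and F4/80hi cells at steady state and at day 4 of dextran sodium sulphate (DSS) colitis, both labelled male. The splenic arrays were monocytes at steady state, labelled female, and at day 4 of DSS colitis, labelled male. Values per array are given below in that order.

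How many mice were used per array, and how the reconstituted cells were obtained, is not given in the labels. The arrays of a side stand in for replicates although they differ in origin, colitis and sex label. A p-value here therefore measures the spread between such arrays, pooled with that between the remaining arrays of the series. Those are colonic CX3CR1int Ly6Clo and Ly6Chi cells from DSS colitis, unlike populations on neither side. Where they differed widely, standard errors and adjusted p-values can be raised. Fits of the compared arrays alone, given for some genes below, leave that spread out. Organ and cell class moved together on these arrays, so colon against spleen and CX3CR1hi against Ly6Chi cannot be told apart. Fewer cells of a type and less RNA per cell cannot be told apart either. The array medians lay between 5.77 and 5.87 on the deposited log2 scale.

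The steady-state splenic array went against its label. It was labelled female and carried Xist, the noncoding RNA of the inactive X, at 10.04, but it also read 10.28 for Eif2s3y, 8.46 for Uty and 8.38 for Kdm5d, which are Y-linked. The colitis splenic array, labelled male, read 4.58 for Xist and 10.43 for Eif2s3y. The resident and reconstituted arrays read 4.36 and 4.34 for Eif2s3y, and the F4/80hi arrays 4.63 and 4.30 for Xist, so their values went with their labels. Counts are therefore also given without the steady-state splenic array.

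Ly6Chi monocytes leave the bone marrow, circulate and are held in reserve in the spleen. In the gut wall they can mature into macrophages that keep CX3CR1, the fractalkine receptor, and that take up microbes and dying cells, present antigen and make interleukin-10, a cytokine that restrains inflammation. Loss of Ly6C and CCR2 and gain of F4/80, MHC class II and CX3CR1 are the usual marks of that maturation.

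Between the sides, 1193 genes were separated with higher values in the CX3CR1hi arrays and 610 with lower values. The test across genes was limma on 10673 genes bright enough to test, fitted to all 8 arrays, with Benjamini-Hochberg adjusted p at or under 0.05 as a call. It called 2374 genes higher in CX3CR1hi cells, 22.2% of those tested, and 3092 lower, 29.0%. Without the steady-state splenic array it called 1567 higher and 1679 lower. Without the colitis splenic array it called 1645 higher and 1835 lower. Separated genes were 11.2% (higher) and 5.69% (lower) of those tested. They were counted on the arrays that the test used, so the test adds no independent support for them. These shares over all genes stand beside every count of a gene list below, and a count near them says nothing particular about its list. Counts below without a splenic array stand beside the lower counts over all genes given above. Of the separated genes, 1182 of 1193 were called higher and 600 of 610 lower. Gaps were wider among the genes higher in CX3CR1hi cells, with a median of 1.92 log2, than among those lower, with a median of 1.43 log2. The lower side averaged below 5.87, the highest array median, for 707 of the 1193 and for 139 of the 610. The files hold no detection calls, so a value that low may be background, and folds against such a mean are written as at least that size. A gap of at least 5 log2 was found for 43 genes on the higher side and 8 on the lower side.

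**Figure D1:**
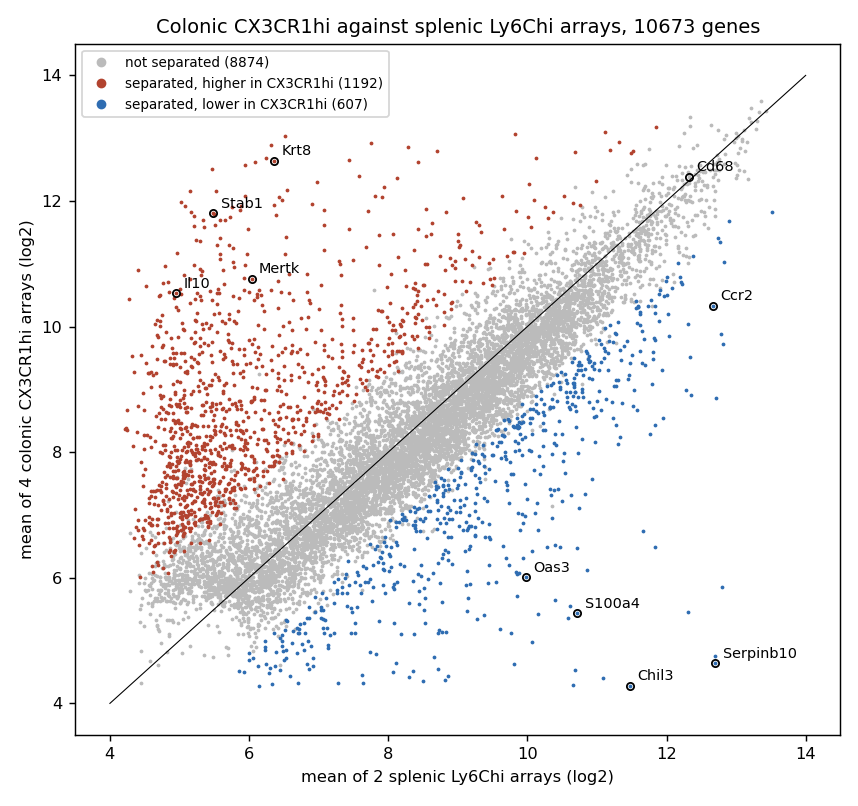
Mean log2 value of 10673 genes over the 4 colonic CX3CR1hi arrays (vertical) against the mean over the 2 splenic Ly6Chi arrays (horizontal). Red points are the 1192 tested genes separated higher and blue points the 607 separated lower in CX3CR1hi arrays. Cd68, a gene of both cell classes, lies at the diagonal, and Serpinb10 and Chil3 lie farthest below it among the labelled genes.

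Across the genes tested, the colonic arrays correlated with each other at 0.964 to 0.983, the splenic pair at 0.992, and colonic with splenic arrays at 0.682 to 0.771. These are across genes, which are not independent replicates. At the threshold of the rule, Cxcr3 (gap 1.0003), Bcl2a1c (1.0011) and Dnajb1 (1.0023) were just inside on the higher side, and Lclat1 (0.9982), Tgfbr2 (0.9978) and Slc39a5 (0.9970) just outside. On the lower side AB010352, Fam107b and Rab19 were just inside, with gaps reaching -1.0011, and Siva1, Gdpd3 and Was just outside, with -0.9979, -0.9975 and -0.9950.

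Genes of another cell type moved with the comparison and stand beside every result below. All 22 markers of colonic epithelium were separated and called higher, also without the steady-state splenic array. Their summed level, on the log2 scale, was 16.40, 15.98, 15.77 and 15.78 in the CX3CR1hi arrays, against 9.53 and 10.65 in the splenic arrays. Krt8, a keratin of simple epithelia, read 12.94, 12.73, 12.43 and 12.46 in CX3CR1hi arrays, against 5.58 and 7.14 in splenic arrays. The epithelial markers were highest in the resident array (20 genes) or the reconstituted array (2 genes). Of the 1193 genes separated higher, 675 (56.6%) had their highest value in the resident array, against 31.3% of the genes tested. The part of epithelial RNA in these differences was not tested.

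Several genes with the widest gaps are known from gut epithelium and were not on the marker list. Adh1, an alcohol dehydrogenase, read 12.42, 12.47, 11.90 and 11.85 in CX3CR1hi arrays, against 4.60 and 5.70 in splenic arrays, the widest gap on the higher side at 6.15. Pigr, which carries IgA across epithelia, had a gap of 5.92. Agr2 (5.53), a goblet cell chaperone, Dmbt1 (5.50), a mucosal scavenger protein, Gpx2 (5.38), a gut glutathione peroxidase, and Guca2a (5.31), which encodes guanylin, followed. The naming rule left out markers of other cells, such as Pf4 (5.69), Car2 (5.34) and Krt8 (5.29). The remaining genes of the 15 widest gaps that it drew were Sycn (5.73), Oit1 (5.70), Stab1 (5.69), Mmp13 (5.62), Mal2 (5.57), Sval1 (5.43), Pmp22 (5.36), Tmem45b (5.33) and Il1a (5.28). Their cell of origin was not tested, and this order does not set them apart from epithelial genes. Oit1, Mal2, Sval1 and Tmem45b were highest in the resident array, as most epithelial markers were. Sycn, Mmp13 and Il1a were highest in the reconstituted array, and Stab1 and Pmp22 in the colitis F4/80hi array.

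**Figure D2:**
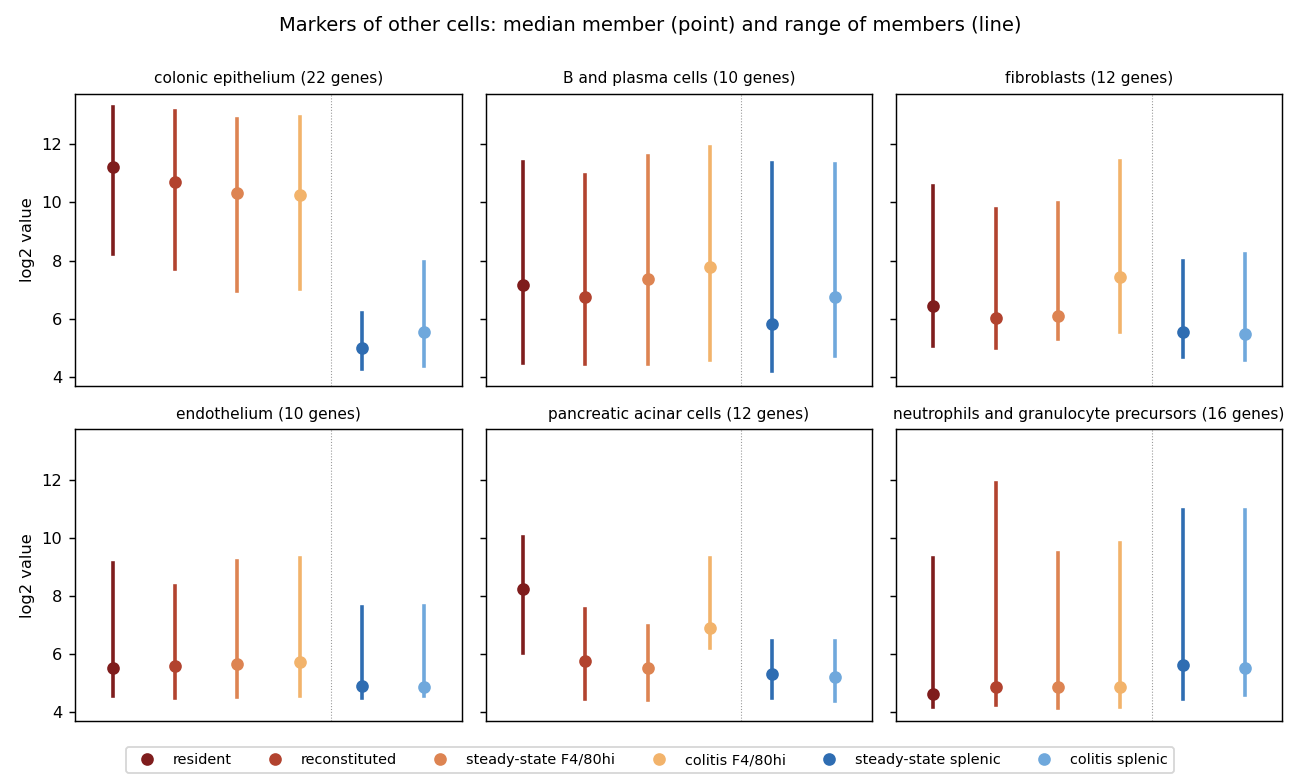
Log2 values of marker genes of 6 other cell types in the 4 colonic CX3CR1hi arrays (left of the dotted line) and the 2 splenic Ly6Chi arrays (right). Points are the median member and lines run from the lowest to the highest member. The median epithelial marker stands far higher in every CX3CR1hi array, and acinar markers stand high in the resident and colitis F4/80hi arrays only.

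Some markers of other cells moved as well. Jchain, which joins IgA and IgM chains in plasma cells, read 11.40, 10.83, 11.61 and 11.90 in CX3CR1hi arrays, against 6.02 and 7.03 in splenic arrays. Igha was called higher too (19.3-fold). Of 8 B and plasma cell markers tested, 3 were called higher and 2 lower, Xbp1 (1.42-fold) among the latter. Dcn, a fibroblast matrix proteoglycan, read 10.55, 9.77, 9.99 and 11.43, against 5.19 and 5.26 in splenic arrays. It was the 1 separated member of 12 fibroblast genes, of which 11 were tested, with 3 called higher and 0 lower. The shares separated and called higher were near those over all genes tested. Pancreatic enzyme genes were uneven within the colonic side. Ctrb1 read 10.02 and 9.33 in the resident and colitis F4/80hi arrays and 6.43 and 5.73 in the reconstituted and steady-state F4/80hi arrays, against 5.35 and 5.15 in splenic arrays, and it was not called (adjusted p = 0.204). No measured gene of the 4 of enteric glia was bright enough to test.

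Single markers of further cell types were separated too. Cd4, the T helper cell coreceptor, which some gut macrophages are known to carry, read 10.47, 10.16, 10.29 and 10.80 in CX3CR1hi arrays, against 5.32 and 5.28 in splenic arrays (at least 35.0-fold). Of 13 measured markers of T, NK and innate lymphoid cells, 4 were bright enough to test, with Cd4 and Il7r, the interleukin-7 receptor chain (at least 10.2-fold), called higher and 2 called lower (1 and 2 without the steady-state splenic array). Cdh5, an endothelial cadherin, was higher at least 3.71-fold and the 1 separated of 10 endothelial genes, of which 6 were tested and 3 called higher. The Il7r and Cdh5 calls were lost without the steady-state splenic array (adjusted p = 0.0520 and 0.0512). Car2, a carbonic anhydrase of red cells that gut epithelium is also known to make, was higher at least 64.5-fold and the 1 erythroid marker tested of 5 measured. The part of these cells in the differences was not tested.

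The labelled cell classes were checked on their own markers. Cx3cr1 read 11.21, 10.88, 11.34 and 11.29 in CX3CR1hi arrays, against 10.76 and 9.95 in splenic arrays, a difference of 0.83 (adjusted p = 0.0259). That call was lost without the colitis splenic array (adjusted p = 0.231) and without the resident, steady-state F4/80hi or colitis F4/80hi array (0.0531 to 0.0605). Adgre1, which encodes F4/80, read 12.33, 12.05, 12.51 and 12.32, against 11.46 and 11.53 in splenic arrays, and was not called (adjusted p = 0.0847), although it was in a fit of the 6 arrays alone (0.0023). Csf1r, the receptor for macrophage colony-stimulating factor, differed by 0.11 (SE 0.28) and the lysosomal protein gene Cd68 by 0.06 (SE 0.22). In Csf1r the CX3CR1hi arrays spanned 0.06, whereas the CX3CR1int Ly6Clo and Ly6Chi arrays, pooled into its SE, read 10.65 and 11.84. Fcgr1, a high-affinity IgG receptor often used to tell macrophages from dendritic cells, differed by -0.04 (SE 0.37).

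Macrophage identity genes, a list that includes Cx3cr1, Adgre1, Csf1r, Cd68 and Fcgr1 from above, were higher or not called. Of 18 tested, 12 were called higher and 0 lower, and 9 were separated (11 higher without the steady-state splenic array). Dab2, an endocytic adaptor, read 12.59, 12.40, 12.63 and 12.65 in CX3CR1hi arrays, against 4.76 and 7.12 in splenic arrays. It was higher 99.0-fold on average, but the colitis splenic array stood 2.36 log2 above the steady-state one. Hpgds, the haematopoietic prostaglandin D synthase, was higher at least 56.7-fold (adjusted p = 7.438e-05). Tmem119 (at least 12.9-fold) and Olfml3 (11.3-fold), both better known from microglia, and Maf (4.39-fold), a transcription factor of mature macrophages, were called higher as well. Siglec1, the sialoadhesin gene, read 9.43, 10.04, 9.06 and 9.87, against 9.35 and 9.07 in splenic arrays, so the sides overlapped.

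Complement genes were mostly higher. C1qa, C1qb and C1qc encode the chains of C1q, which binds antibody and dying cells and starts the classical cascade. C1qa read 11.93, 11.96, 12.07 and 12.14 in CX3CR1hi arrays, against 5.78 and 7.16 in splenic arrays. C1qb read 12.70, 12.71, 12.88 and 12.90, against 8.36 and 9.06 in splenic arrays, and C1qc read 12.65, 12.51, 12.72 and 12.75, against 6.76 and 8.11 in splenic arrays. The colonic arrays spanned 0.21, 0.19 and 0.24 log2 in C1qa, C1qb and C1qc, and in each gene the colitis splenic array stood above the steady-state splenic one. They were higher 47.0-fold, 17.0-fold and 37.4-fold (adjusted p at most 2.691e-05). The 3 genes are neighbours on chromosome 4 in the RefSeq table.

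Of 13 complement genes tested, 8 were called higher, the same 8 that were separated, and 1 lower (7 and 0 without the steady-state splenic array). C3ar1, the receptor for the C3a fragment, read 12.90, 12.61, 12.97 and 12.99 in CX3CR1hi arrays, against 8.08 and 8.48 in splenic arrays (24.0-fold). Serping1, the C1 inhibitor, was higher at least 18.0-fold. Itgax, which encodes CD11c, was higher 8.75-fold. Itgam, which encodes CD11b, read 10.96, 11.10, 11.17 and 10.98, against 11.64 and 11.57 in splenic arrays. It was not called (adjusted p = 0.120, and 0.0038 in a fit of the 6 arrays alone).

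The promoters of C1qb and C1qc are shown because the genes moved together and each holds the letters GAGGAA, the core bound by PU.1, the master transcription factor of myeloid cells. The stretches come from RefSeq (GRCm38.p6), both on the minus strand, C1qb from chr4:136886200-136886255 and C1qc from chr4:136893077-136893132, with the match or its reverse complement in capitals.
C1qb: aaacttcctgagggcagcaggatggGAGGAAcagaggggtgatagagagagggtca
C1qc: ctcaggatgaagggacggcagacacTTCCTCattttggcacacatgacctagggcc
The match began 30 bases before the start of C1qb and 193 bases before that of C1qc. It is a common run of letters. Both strands of windows from 250 bases before to 50 after each start were searched. GAGGAA was in 32.1% of the 889 promoters found for genes separated higher and 31.4% of the 478 for genes separated lower. It was in 27.0% of those of the genes tested and 28.3% of all 27025 promoters. No promoter of C1qa was available to search.

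Receptors and bridging proteins for clearing dying cells split. Of 18 tested, 7 were called higher and 3 lower (6 and 3 without the steady-state splenic array). Gas6, which bridges phosphatidylserine on dying cells to TAM receptors, read 10.52, 10.66, 10.23 and 10.68 in CX3CR1hi arrays, against 4.87 and 5.18 in splenic arrays (at least 45.3-fold, adjusted p = 6.591e-06). Mertk, a TAM receptor for it, read 10.51, 10.96, 10.79 and 10.79, against 5.77 and 6.30 in splenic arrays (26.5-fold), and its relative Axl was higher 3.93-fold. Stab1, the scavenger receptor stabilin-1, was higher at least 79.6-fold. Abca1, the cholesterol exporter, was higher 13.01-fold, while Abca7, a related transporter, was lower 4.69-fold. Scarb1, a lipoprotein receptor, was lower 3.31-fold and the integrin chain Itgb3 at least 2.93-fold. Itgb5 was separated (gap 1.45) but not called (adjusted p = 0.0505; 2.974e-05 in a fit of the 6 arrays alone).

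Of 14 scavenger and lectin receptors, 5 were called higher and 2 lower (4 and 0 without the steady-state splenic array), and without the colitis splenic array 0 were lower. Mrc1, the mannose receptor, read 12.27, 11.85, 12.35 and 12.39 in CX3CR1hi arrays, against 7.67 and 8.20 in splenic arrays. Folr2, a folate receptor, and Mgl2, a galactose lectin, were higher at least 25.5-fold and at least 24.4-fold. Cd163, the haemoglobin scavenger receptor, varied within the colon, at 8.22, 5.99, 7.60 and 9.14, against 5.03 and 5.28 in splenic arrays. Its call (adjusted p = 0.0202) was lost without the steady-state splenic array (0.111) and without the colitis splenic array (0.0822). Cd209a, a lectin of the DC-SIGN family, read 7.86, 5.45, 8.14 and 8.18, against 10.24 and 10.64 in splenic arrays, and its call as lower (adjusted p = 0.0104) was lost without either splenic array (0.0516 and 0.0726). The reconstituted array was the lowest of the colonic arrays for both genes.

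**Figure D3:**
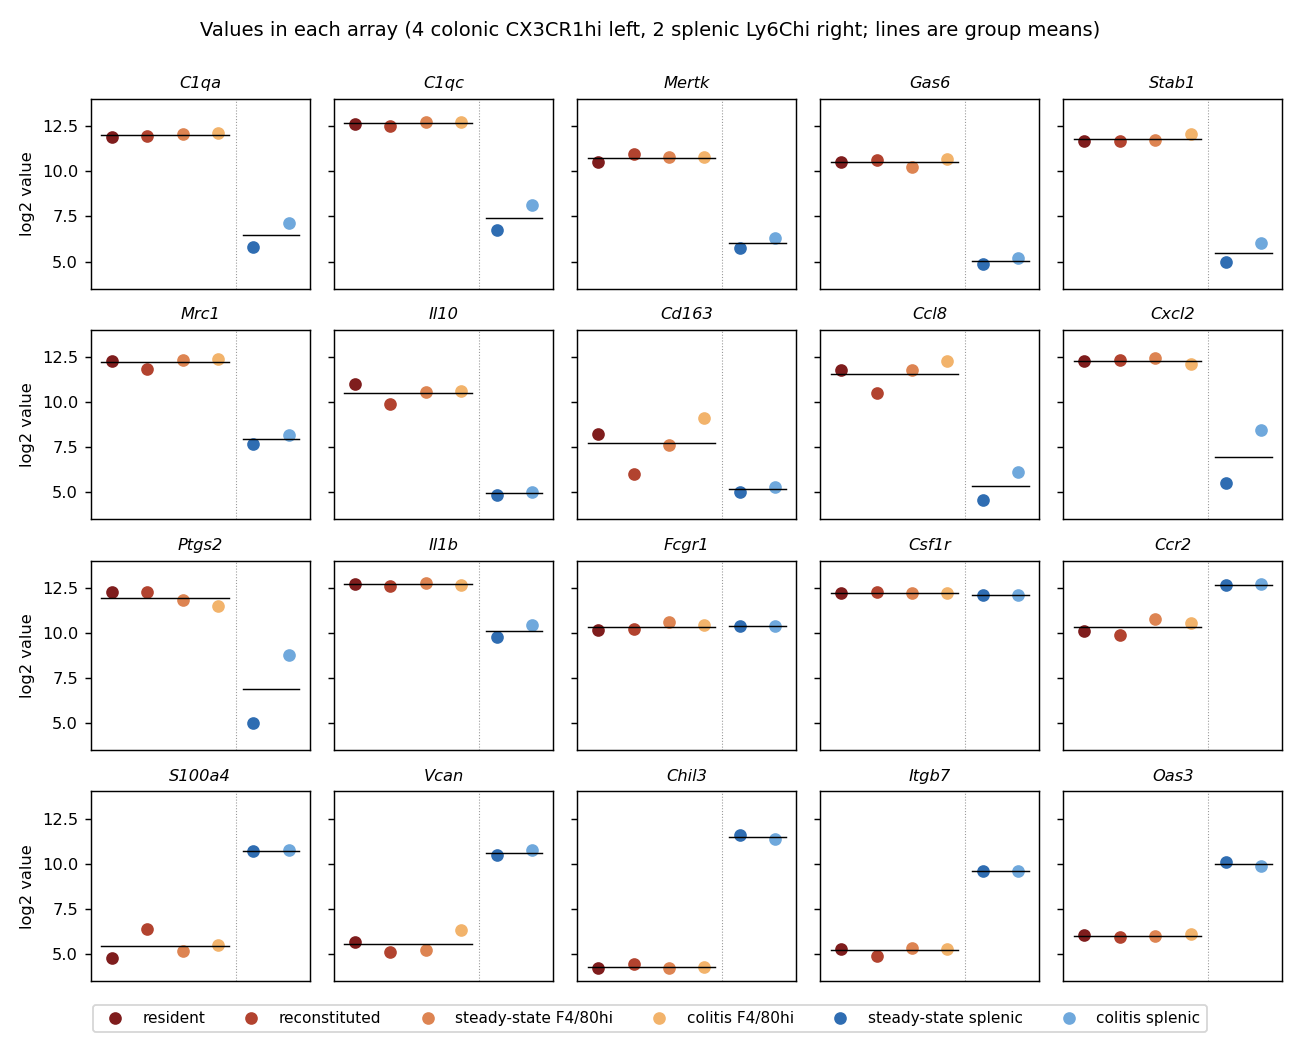
Log2 values of 20 genes in each array, the 4 colonic CX3CR1hi arrays left of the dotted line and the 2 splenic Ly6Chi arrays right of it, with group means as lines. C1qa to Il1b are higher in CX3CR1hi arrays, Fcgr1 and Csf1r differ by -0.04 and 0.11, and Ccr2 to Oas3 are lower.

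Il10 read 11.01, 9.92, 10.56 and 10.63 in CX3CR1hi arrays, against 4.87 and 5.04 in splenic arrays, at least a 47.6-fold higher level (adjusted p = 1.869e-05). The lowest colonic array lay 4.88 log2 above the higher splenic array. Of 15 genes tested on the interleukin-10 and TGF-beta axis, 7 were called higher and 3 lower, and 3 were separated higher (6 higher and 0 lower without the steady-state splenic array). Without the resident, reconstituted, steady-state F4/80hi or colitis splenic array 1 was lower. Socs3, a target and brake of cytokine signalling, was higher 4.45-fold. Smad7, an inhibitor of TGF-beta signalling, was higher 4.13-fold.

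Growth factor genes were mostly higher. Of 11 growth factor genes tested, 8 were called higher and separated and 1 was called lower (8 and 0 without the steady-state splenic array). Igf1, insulin-like growth factor 1, read 10.17, 9.17, 10.33 and 10.64 in CX3CR1hi arrays, against 6.39 and 6.75 in splenic arrays. Hbegf (at least 19.3-fold), Pdgfc (at least 13.2-fold), Vegfa (at least 10.6-fold) and Bmp2 (at least 7.08-fold) were also higher. Hbegf, Vegfa and Bmp2 were highest in the resident array, as were 56.6% of all genes separated higher. Epithelium is known to make Vegfa and Hbegf as well, and its part in these values was not tested.

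Of 23 genes of matrix proteases and coagulation, 11 were called higher and 4 lower (9 and 4 without the steady-state splenic array). Mmp13, a collagenase, read 11.57, 11.92, 11.82 and 11.49 in CX3CR1hi arrays, against 4.80 and 5.87 in splenic arrays. Mmp2, a gelatinase, was higher at least 39.2-fold and Adamdec1, a protease known from gut macrophages, 32.6-fold. Mmp8, the neutrophil collagenase, went the other way, with 4.20, 4.36, 4.30 and 4.28 in CX3CR1hi arrays, against 10.59 and 10.74 in splenic arrays. F5, coagulation factor V, was lower at least 21.7-fold and Thbd, thrombomodulin, 7.03-fold. Mmp9 was not called (adjusted p = 0.207) with 11.88 in the reconstituted array and 6.32 to 7.04 in the other colonic arrays, against 5.72 and 5.79 in splenic arrays. Without the reconstituted array it was called higher (0.0178).

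Chemokine genes were mostly higher. Of 20 tested, 15 were called higher and 1 lower, with 12 and 1 separated (13 higher without the steady-state splenic array). Ccl8, a ligand of several CC receptors, read 11.78, 10.50, 11.77 and 12.27 in CX3CR1hi arrays, against 4.55 and 6.14 in splenic arrays (at least 75.3-fold). Ccl7 and Ccl12, monocyte attractants that act through CCR2, were higher at least 45.0-fold and at least 21.7-fold. Cxcl2, a neutrophil attractant, read 12.28, 12.33, 12.47 and 12.11, against 5.50 and 8.46 in splenic arrays, so the splenic arrays differed by 2.96 log2. Pf4, best known as a platelet chemokine, was higher at least 69.0-fold, and it read 11.61, 11.59, 11.72 and 11.56 in CX3CR1hi arrays, against 5.15 and 5.88 in splenic arrays. Of 5 measured platelet markers 2 were bright enough to test, and both were separated and called higher (1 called without the steady-state splenic array). Ppbp, another platelet chemokine, read 7.91, 9.16, 7.82 and 8.23 in CX3CR1hi arrays, against 5.73 and 5.76 in splenic arrays (at least 5.80-fold). The Ppbp call was lost without the steady-state splenic array (adjusted p = 0.0587) and without the colitis splenic array (0.0540). The platelet glycoprotein gene Gp9 read between 4.75 and 5.15 in CX3CR1hi arrays, against 4.93 and 5.28 in splenic arrays. The part of platelet RNA was not tested. Ccl9 was the 1 called lower (2.44-fold), and that call was lost without any 1 of the 6 arrays (adjusted p 0.0569 to 0.143).

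Ccl7, Ccl11, Ccl12 and Ccl8 are consecutive measured genes on chromosome 11 in the RefSeq table and all 4 were separated higher. Ccl11, the eosinophil attractant eotaxin, which was not on the list and is named for its place in this run, was higher 3.37-fold. P2ry12, P2ry13 and P2ry14, nucleotide receptor genes that lie together on chromosome 3, were higher 3.54-fold, 5.54-fold and 6.17-fold.

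Receptors for chemoattractants were split evenly, with 5 called higher and 5 lower of 13 (3 and 5 without the steady-state splenic array). The number higher was 1 without the colitis splenic array and 3 without the resident array. Ccr2, the receptor that draws monocytes out of marrow and into tissue, read 10.12, 9.86, 10.79 and 10.57 in CX3CR1hi arrays, against 12.65 and 12.68 in splenic arrays, a 5.03-fold lower level (adjusted p = 0.00146). S1pr5, a sphingosine phosphate receptor of egressing leukocytes, was lower at least 15.1-fold, and Ltb4r1, a leukotriene B4 receptor, at least 4.08-fold. Cxcr3 was higher at least 2.53-fold. Cmklr1, the chemerin receptor, was separated by a gap of 1.01 but not called (adjusted p = 0.0811).

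Inflammatory mediators, the cytokines and enzymes that start inflammation, were mostly higher. Of 12 tested, 7 were called higher and 1 lower (7 and 0 without the steady-state splenic array). Il1b read 12.72, 12.62, 12.77 and 12.64 in CX3CR1hi arrays, against 9.78 and 10.46 in splenic arrays (5.92-fold). Il1a was higher at least 61.3-fold and Osm, oncostatin M, 11.8-fold. Ptgs2, the inducible cyclooxygenase, read 12.24, 12.24, 11.83 and 11.48, against 5.03 and 8.78 in splenic arrays. Tnfaip3, which encodes the NF-kB inhibitor A20, was higher 4.96-fold. Il27, a subunit of a regulatory cytokine, was the 1 called lower (2.39-fold), and that call was lost without the steady-state splenic array (adjusted p = 0.0637).

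Immediate early genes, which any stimulus including tissue digestion is known to induce, moved in the same direction. Of 21 tested, 20 were called higher and 0 lower, 9 of them separated (11 higher without the steady-state splenic array), and without the colitis splenic array 16 were separated. Fosb, an AP-1 subunit, read 11.86, 12.14, 12.18 and 12.14 in CX3CR1hi arrays, against 6.23 and 9.39 in splenic arrays. Egr1, a zinc finger factor, read 11.72, 11.85, 11.81 and 12.002, against 6.70 and 8.70 in splenic arrays. In the colitis splenic array 10 of 22 measured members stood at least 1 log2 above the steady-state splenic array, as did 7 of 22 epithelial markers and 67 of the 10673 genes tested. The part of cell handling in the inflammatory and immediate early genes was not tested.

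Antigen presentation genes were higher or not called. Of 11 MHC class II genes, 6 were called higher and 0 lower (5 higher without the steady-state splenic array). H2-Eb1, a class II beta chain, read 13.09, 13.06, 13.09 and 13.16 in CX3CR1hi arrays, against 10.82 and 11.40 in splenic arrays (3.97-fold). H2-Ab1 was higher 2.49-fold, H2-Aa 2.00-fold and Ciita, the class II transactivator, 2.39-fold. The class II genes already stood high in the splenic arrays, at 12.23 and 12.44 for H2-Aa. Among 10 costimulatory genes 5 were called higher and 0 lower, with and without the steady-state splenic array. Cd83, a maturation marker that stabilises MHC class II at the surface, was higher 28.1-fold, Cd274, which encodes PD-L1, 4.79-fold and Cd86 3.99-fold.

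Monocyte identity genes gave the reverse picture. Of 23 tested, 21 were called lower and 0 higher, and 19 were separated (16 lower without the steady-state splenic array). Serpinb10, a leukocyte serpin, had the widest gap of all genes, with 4.38, 4.75, 4.69 and 4.74 in CX3CR1hi arrays, against 12.68 and 12.72 in splenic arrays. Chil3, the chitinase-like protein Ym1, read 4.22, 4.43, 4.19 and 4.29, against 11.61 and 11.35 in splenic arrays. S100a4, a calcium-binding protein of motile cells, read 4.77, 6.36, 5.14 and 5.46, against 10.69 and 10.75 in splenic arrays. The sides were far apart in all 3 genes and the splenic arrays nearly equal.

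Markers of neutrophils and granulocyte precursors moved in the same direction as the monocyte genes, with exceptions. Of 16 measured, 6 were separated lower and 1 higher, and of 7 tested 4 were called lower and 1 higher (3 and 1 without the steady-state splenic array). Their summed level, on the log2 scale, was 10.70, 12.31, 10.35 and 10.66 in CX3CR1hi arrays, against 12.14 and 12.25 in splenic arrays, and the reconstituted array, where Mmp9 was high, overlapped the splenic side. Lcn2, lipocalin 2, was lower at least 8.89-fold, and Ly6g, the neutrophil surface antigen, was higher at least 6.80-fold. S100a8 and S100a9 are on both this list and the monocyte identity list, so the lists are not independent. The part of granulocyte RNA in the monocyte genes was not tested. Of 10 patrolling monocyte markers tested, 4 were called lower and 3 higher, and 4 were separated lower. Their median level was 9.19, 9.30, 8.81 and 8.73 in CX3CR1hi arrays, against 10.39 and 10.08 in splenic arrays. Those called higher were Cx3cr1, Fcgr4 and Nr4a1. Treml4, called lower, read 7.85, 9.51, 8.06 and 7.55, against 11.34 and 11.31 in splenic arrays. Treml4 is also on the list of red pulp macrophage markers, of which 6 were tested, with 2 called higher and 1 lower. The part of patrolling monocytes was not tested either.

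Ifitm6 was lower at least 123-fold and Hp, haptoglobin, at least 103-fold. F10, coagulation factor X, was lower at least 27.0-fold and Trem3, a triggering receptor of myeloid cells, at least 37.4-fold. Vcan, the proteoglycan versican, was lower at least 33.1-fold, but its call (adjusted p = 0.0128) was lost without the steady-state splenic array (0.0667) and without the colitis splenic array (0.0758). F13a1, coagulation factor XIII, read 10.34, 9.64, 10.16 and 10.66, against 12.04 and 12.01 in splenic arrays. It was separated but not called (adjusted p = 0.110; 0.00093 in a fit of the 6 arrays alone). The other genes of the 15 widest gaps drawn by the naming rule on the lower side were Ly6a2 (-7.69), Arhgef37 (-6.03), Klrb1f (-4.98), Plcb1 (-4.37), Cyp2ab1 (-4.32), Napsa (-4.29), Itgb7 (-4.28), Slfn1 (-4.23) and Ptgir (-4.07). S100a4 (-4.33), F10 (-4.29) and F5 (-4.20) had gaps wider than some of these, but the naming rule left out symbols of their form. Mmp8 (-6.23) was left out as a marker of another cell type.

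Adhesion molecules changed in both directions, with 8 called higher and 8 lower of 20 (7 and 7 without the steady-state splenic array). Itgb7, the chain of the gut homing integrin that binds MAdCAM-1, read 5.25, 4.89, 5.33 and 5.28 in CX3CR1hi arrays, against 9.61 and 9.61 in splenic arrays, at least a 21.5-fold lower level in the cells from the colon. Itga9, a receptor for tenascin and osteopontin, read 11.10, 11.50, 11.35 and 11.26, against 5.43 and 6.00 in splenic arrays (at least 48.1-fold higher). The tetraspanins Cd81 and Cd9 were higher 18.3-fold and 12.8-fold, and Vcam1 12.02-fold. Itga6, the laminin receptor chain, was higher at least 30.0-fold. Itga6 and Cd9 are also known from epithelium.

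**Figure D4:**
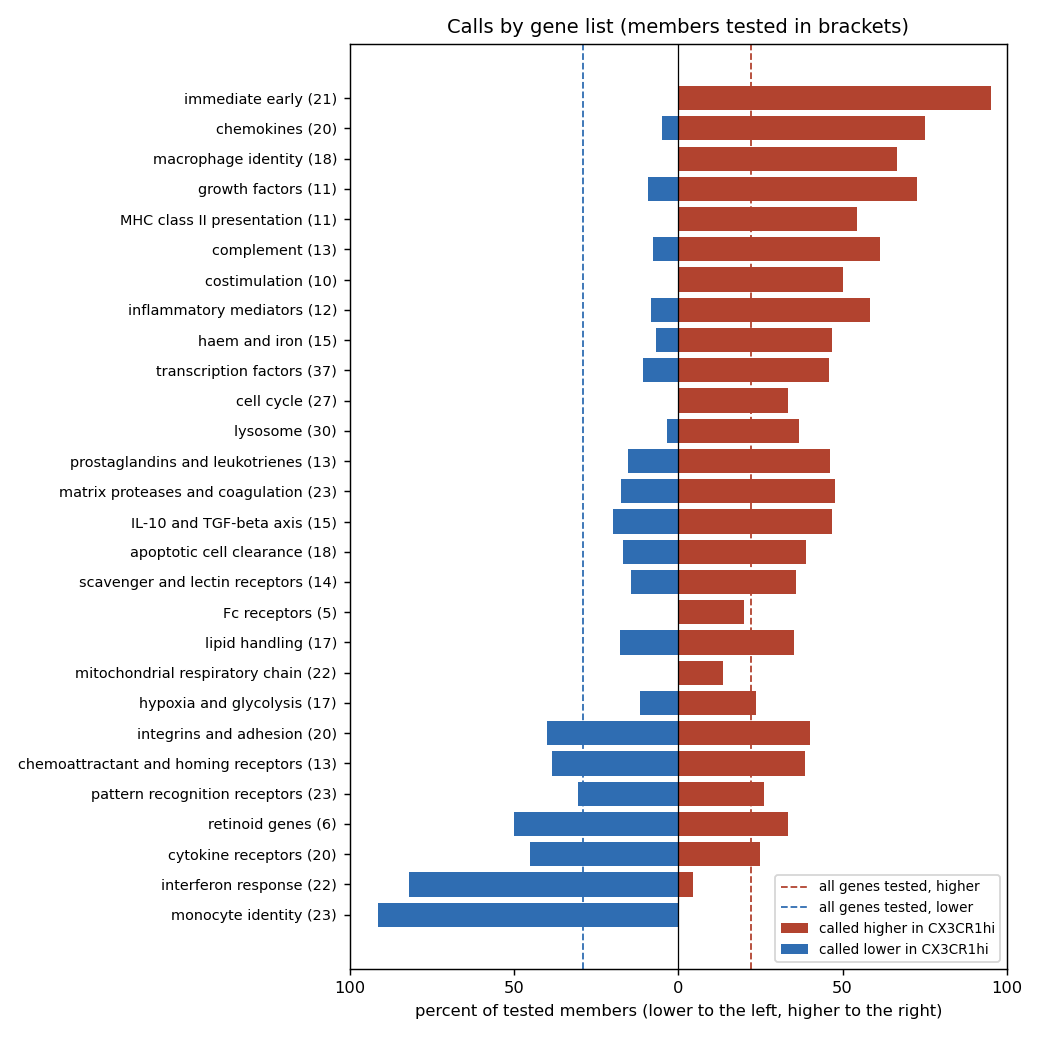
Share of tested members of each gene list called higher (red, right) or lower (blue, left) in colonic CX3CR1hi arrays, with the number tested in brackets. Dashed lines are the shares over all genes tested, 22.2% higher and 29.0% lower. Monocyte identity and interferon response genes extend farthest to the left.

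Genes induced by interferon were lower in the CX3CR1hi arrays. Of 22 tested, 18 were called lower and 1 higher (16 and 0 without the steady-state splenic array), with 10 and 1 separated. Their median difference was -1.50, beside -0.12 over all genes tested. Oas3, an antiviral oligoadenylate synthetase, read 6.03, 5.95, 5.99 and 6.08 in CX3CR1hi arrays, against 10.07 and 9.88 in splenic arrays (15.6-fold lower). Irf7, the factor that amplifies the interferon response, read 8.67, 8.64, 8.11 and 8.81, against 11.03 and 10.90 in splenic arrays. Usp18, a brake on the interferon receptor, was lower 5.22-fold, and Cmpk2, a mitochondrial nucleotide kinase, 6.49-fold. All 10 separated lower members had their highest colonic value in the colitis F4/80hi array. That 1 array held the highest colonic value of 42.1% of all genes separated lower and 34.2% of the genes tested.

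Iigp1, an interferon-gamma-induced GTPase, was the 1 member higher, at 8.21, 6.71, 7.89 and 9.60 in CX3CR1hi arrays, against 5.67 and 5.48 in splenic arrays. That call (adjusted p = 0.0151) was lost without the steady-state splenic array (0.0738) and without the colitis splenic array (0.0858).

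The promoters of Ifit1, Oas1a and Oas3 are shown because they hold GAAANNGAA, the core of the element bound by interferon-activated factors, more than once. The stretches are from RefSeq (GRCm38.p6), Ifit1 on the plus strand of chr19:34640755-34640838, Oas1a on the minus strand of chr5:120907506-120907570 and Oas3 on the minus strand of chr5:120777695-120777759. Capitals mark the matches or their reverse complement, which overlap in Oas1a and Oas3. In Ifit1 those 109 and 103 bases before the start overlap, and that 84 bases before it lies apart.
Ifit1: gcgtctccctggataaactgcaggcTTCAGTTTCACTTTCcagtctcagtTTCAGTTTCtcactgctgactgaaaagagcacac
Oas1a: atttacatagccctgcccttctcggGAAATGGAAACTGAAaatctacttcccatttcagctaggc
Oas3: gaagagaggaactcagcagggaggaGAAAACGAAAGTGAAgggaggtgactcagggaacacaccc
The Ifit1 stretch held 3 matches and the Oas1a and Oas3 stretches 2 each. Ifit1 and Oas1a, named for these promoters after their values were seen, were lower 2.78-fold and 3.29-fold. Searched on both strands of the same windows, GAAANNGAA was in 14.6% of the 478 promoters of genes separated lower. The share was 7.20% of the 889 of genes separated higher, 7.51% of those of the genes tested and 8.57% of all promoters. The motif was in 8 of the 16 interferon response genes with a promoter in the table. Irf7, Oasl2, Cmpk2 and Xaf1 had no match in the window.

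Of 23 pattern recognition receptor genes 6 were called higher and 7 lower (5 and 6 without the steady-state splenic array), shares near the 22.2% and 29.0% of all genes tested. Tlr12 was higher at least 15.6-fold and Clec4n, which encodes dectin-2, 7.45-fold. Tlr3, the sensor of double-stranded RNA, was higher 3.66-fold. Clec4e, which encodes the mycobacterial glycolipid sensor Mincle, was lower 9.88-fold. Of 5 Fc receptor genes 1 was called higher, Fcgr4 (2.66-fold), also a share near that of all genes tested.

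Cytokine receptors were called higher in 5 and lower in 9 of 20 (1 and 6 without the steady-state splenic array), and without the reconstituted or the steady-state F4/80hi array 3 were higher. Il1r2, the decoy receptor for interleukin-1, read 10.78, 11.52, 10.50 and 9.25 in CX3CR1hi arrays, against 6.19 and 6.04 in splenic arrays. Flt3, a receptor of dendritic cell precursors, read 4.87, 5.20, 5.32 and 5.14, against 8.85 and 8.80 in splenic arrays (at least 12.9-fold lower). Il17ra was lower 7.47-fold. The share of cytokine receptors called higher with all arrays was near the 22.2% of all genes tested.

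Of 30 lysosomal genes, 11 were called higher and 1 lower. Without either splenic array 7 were higher. Cd63, a tetraspanin of late endosomes, read 11.94, 11.72, 11.59 and 11.84 in CX3CR1hi arrays, against 6.63 and 6.13 in splenic arrays (42.0-fold). Gpnmb, a glycoprotein of phagolysosomes, was higher at least 22.4-fold, Ctsl, cathepsin L, 4.94-fold and Lgmn, legumain, 3.10-fold. Among 17 lipid genes 6 were called higher and 3 lower (5 and 1 without the steady-state splenic array), and without the colitis splenic array 1 was lower. Pltp, the phospholipid transfer protein, was higher 3.31-fold and Ch25h, the cholesterol 25-hydroxylase, at least 4.32-fold.

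Haem and iron genes were called higher in 7 and lower in 1 of 15 (6 and 0 without the steady-state splenic array), and without the colitis splenic array 0 were lower. Tfrc, the transferrin receptor, was higher at least 9.22-fold, Cp, ceruloplasmin, at least 20.4-fold and Slc40a1, the iron exporter ferroportin, 4.31-fold. Hmox1, haem oxygenase 1, read 9.87, 10.48, 10.18 and 11.14 in CX3CR1hi arrays, against 10.43 and 10.30 in splenic arrays, so the sides overlapped.

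Prostaglandin and leukotriene genes were called higher in 6 and lower in 2 of 13, also without the steady-state splenic array. Alox5, the 5-lipoxygenase, was higher 2.59-fold and Ltc4s, the leukotriene C4 synthase, at least 6.16-fold. Alox5ap, the protein that feeds the 5-lipoxygenase, went the other way, at 9.18, 9.44, 9.63 and 9.84 in CX3CR1hi arrays, against 12.29 and 12.40 in splenic arrays (7.07-fold lower). Of 6 retinoid genes tested, 2 were called higher and 3 lower, also without the steady-state splenic array. Aldh1a1, which makes retinoic acid, was higher at least 4.97-fold and was highest in the resident array. Dhrs3, a retinal reductase, was higher 3.90-fold and Rarg, a retinoic acid receptor, was lower 4.09-fold.

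Among 37 transcription factor genes 17 were called higher and 4 lower (10 and 3 without the steady-state splenic array), and without the colitis splenic array 2 were lower. Nr4a3, an orphan nuclear receptor, was higher at least 13.9-fold, Myb at least 9.57-fold and Myc 8.54-fold. Rara, a retinoic acid receptor, was lower 3.81-fold and Irf5, a factor of inflammatory macrophages, 2.35-fold.

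Cell cycle genes were called higher in 9 and lower in 0 of 27 (2 higher without the steady-state splenic array and 4 without the colitis splenic array). The number separated was 7 with all arrays, 11 without the steady-state splenic array and 13 without the steady-state F4/80hi array. Mki67, the proliferation antigen Ki-67, read 9.86, 9.96, 9.49 and 9.67 in CX3CR1hi arrays, against 8.08 and 8.03 in splenic arrays (3.23-fold). The 7 separated members were highest in the reconstituted (4) or resident (3) array. Dividing epithelial cells are another known source of these transcripts, and their part was not tested. Of 17 hypoxia and glycolysis genes 4 were called higher, a share near the 22.2% of all genes tested, and 2 lower. The number higher was 1 without either splenic array, 2 without the resident array and 7 without the colitis F4/80hi array, and 1 was lower without the colitis splenic array. Of 22 respiratory chain genes 3 were called higher and 0 lower, with 0 higher without the steady-state splenic array and 1 without the colitis splenic array.

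The 2 remaining arrays of the series, colonic CX3CR1int Ly6Clo and CX3CR1int Ly6Chi cells from DSS colitis, were not used to define separated genes. Of the 1193 genes separated higher, 74.1% lay between the sides in the Ly6Clo array and 82.3% in the Ly6Chi array. Of the 610 separated lower, 62.8% and 82.6% lay between. For the genes separated lower, the value in the Ly6Clo array had reached the CX3CR1hi side in 28.2%, and that in the Ly6Chi array in 6.39%. For the genes separated higher these shares were 16.8% and 10.4%. Mertk read 7.23 and 8.26 in the Ly6Clo and Ly6Chi arrays, C1qa 8.68 and 7.92, Ccr2 11.09 and 12.32 and Oas3 8.12 and 9.31. The summed level of the epithelial markers was 14.80 and 14.86 in these arrays, also between the sides.

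**Figure D5:**
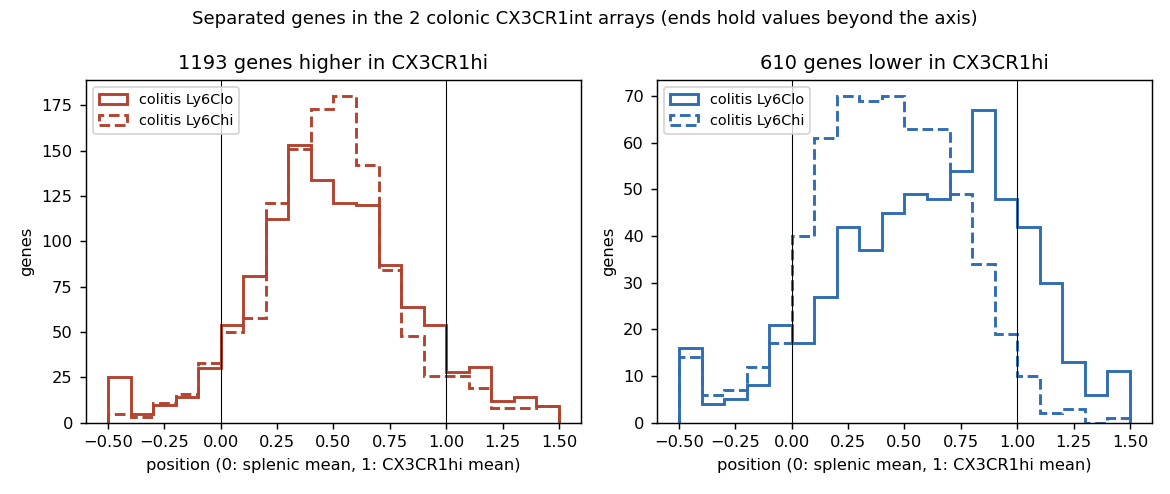
Position of the 1193 genes separated higher (left) and the 610 separated lower (right) in the colonic CX3CR1int Ly6Clo (solid) and Ly6Chi (dashed) arrays. The horizontal axis is 0 at the splenic Ly6Chi mean and 1 at the colonic CX3CR1hi mean, and the vertical axis counts genes. The Ly6Clo array stands nearer to 1 than the Ly6Chi array among the genes separated lower.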

How the data were processed

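Per the labels' protocols, cells were sorted from digested tissue, and their RNA was purified on columns, biotinylated and measured on Affymetrix arrays. The deposited values are on a log2 scale, made by the authors with RMA (background correction, quantile normalization and one summary per probe set) and Partek, per the submitters' processing notes. Their versions and settings, like the build, are not given in the sources used here.

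Of 35399 probe sets, 21789 carried 1 gene symbol in the platform annotation, 1621 several and 11989 none. Probe sets with 1 symbol gave 19938 genes, and where a gene had several the one with the highest mean over the 8 arrays was used. List members without such a probe set are not analysed here. A gene was tested if 2 or more of the 8 arrays read it at or above their own median. The test was limma 3.58.1 under R 4.3.3, fitted to all 8 arrays in 3 groups with moderated variances, CX3CR1hi minus splenic Ly6Chi, with 5 residual degrees of freedom and a median standard error of 0.167. The number of arrays limits the precision. Folds are differences of group means turned to a linear scale, and are lower bounds where a group mean lay under the highest array median. The script was tested on simulated data. Separation has no test. Tables and promoter searches used Python 3.11.15, numpy 2.4.6 and pandas 2.3.3, and figures matplotlib 3.10.9. Promoters are RefSeq's, with 1 per symbol.

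There were 28 role lists and 16 marker lists, described by counts only. Genes to name were drawn by rule, and not every gene drawn is named. The 15 widest gaps in each direction were drawn. Left out of these were predicted genes, chemosensory receptors, histones, small RNAs, immunoglobulin and T cell receptor segments, sex-linked genes and markers of other cells. Symbols of a capital letter followed by digits, such as S100a4, F10 and F5, were left out of them as well. Up to 5 members of each role list with the largest difference were drawn, and members going against their list by at least 1 log2. The 3 brightest markers of each other cell type, markers of the sorted cells, and 3 genes on each side of the threshold were drawn too. A few genes named beside them were chosen after their values were seen: Siglec1, Axl, Lcn2, Ccl11, the P2ry genes, Ifit1, Oas1a, Oasl2 and Xaf1. The members and lists were chosen with earlier results of these data known. Alternatives covered the filter, the choice of probe set, the normalization, sex label and state as blocks, the arrays in the fit, the prior, the threshold, the minimum gap and leaving out each array.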

Additional observations from a re-analysis of the deposited data

Results flagged for a closer look

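Among the 4 colonic CX3CR1hi arrays, 10 of the 178 named genes had 1 array farther from the others than Dixon's critical value for 4 samples allows, and chance gives about 1 in 20 such groups. The reconstituted array stood apart in 4 genes. It read 5.45 for Cd209a (others 7.86 to 8.18), 11.88 for Mmp9 (others 6.32 to 7.04), 10.39 for Olfml3 (others 10.92 to 10.99) and 9.29 for Scarb1 (others 8.82 to 8.88). The resident array stood apart in 4 others, with 11.86 for Fosb (others 12.14 to 12.18), 9.90 for Irf5 (others 10.11 to 10.14), 4.38 for Serpinb10 (others 4.69 to 4.75) and 8.06 for Slc39a5 (others 7.22 to 7.34). The steady-state F4/80hi array read 8.04 for Slc40a1 (others 9.29 to 9.50) and the colitis F4/80hi array 12.09 for Stab1 (others 11.69 to 11.72). The splenic side, with 2 arrays, was not tested this way.

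Probe sets with several gene symbols or none, which no comparison used, held separated signals too. Of 13610 such probe sets, 151 were separated higher in CX3CR1hi arrays and 396 lower.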

How the results depend on the processing

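Leaving out each array in turn gave 1567 to 2268 genes called higher by limma and 1679 to 2925 lower, and the low ends came without the steady-state splenic array (1567 and 1679), followed by the colitis splenic array (1645 and 1835). With 1 splenic array left, its spread was assumed to be that of the other groups. Separated genes numbered 1209 to 1310 higher and 613 to 737 lower without 1 array, where fewer arrays must differ. The filter at the 75th percentile, which tests fewer genes, gave 1357 called higher, and a 2-fold minimum gave 961 called lower. With arrays labelled female alone 937 genes were separated lower. A gap above 0 gave 4433 higher and 6636 lower, at least 0.5 log2 gave 1944 and 1734, and at least 2 log2 gave 561 and 160. Other alternatives stayed within 1.5 times of each count, including sex label or state as a block, centred arrays and a repeated quantile normalization (2159 called higher and 3511 lower). Of 3188 values of named genes under the alternatives, 2979 kept direction and call, 34 lost a call, 10 gained one, 155 moved in subsets of arrays too small to test, and 10 turned in sign, in the 4 genes Fcgr1, Xist, Hmox1 and Cd68, none of them called. With all arrays their differences were -0.04, 1.03, 0.05 and 0.06. Leaving out 1 array gave -0.12 to 0.0315 for Fcgr1, -1.70 to 3.76 for Xist, -0.19 to 0.23 for Hmox1 and -0.0068 to 0.12 for Cd68. A repeated quantile normalization gave 0.0928 for Fcgr1 and state as a block -0.32 for Xist. No paired analysis was possible because the replicate numbers only name arrays of different populations.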
